A study of Macaca mulatta with 12 samples.

Results

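Cultured skin fibroblasts of the rhesus macaque were compared with embryonic stem (ES) cells of the same species on 1 Affymetrix rhesus expression array per sample. The comparison used 12 of the 12 arrays in the series: 3 of fibroblasts and 9 of ES cells, with 3 arrays each for the lines ORMES-22, rPESC-2 and ORMES-9. The fibroblasts were described as freed by collagenase from back skin of 1 male adult aged 9 years, grown in DMEM/F12 with 10% fetal bovine serum, and kept frozen before RNA extraction. All 3 ES lines were described as female and grew with 15% serum on mouse embryonic fibroblast feeder cells whose division had been stopped. Only colonies judged undifferentiated gave RNA. Replicates A, B and C were taken at passage 18, 21 and 19 in ORMES-22. In rPESC-2 the passages were 16, 10 and 16, and in ORMES-9 they were 13, 14 and 16. ORMES-22 came from a fertilised embryo, and rPESC-2 is a heterozygous parthenogenetic line, made from an egg activated without sperm. ORMES-9 is given as a homozygous parthenote in its description and in the series design, while its source field names an embryo from in vitro fertilisation. Sex, donor, age, medium, feeder cells and storage all changed together with cell type, so their parts in any difference below cannot be told apart. The labels call the replicates biological, but each group is 1 line or 1 donor description, so p-values measure the spread between arrays of a line and not between donors.

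Fibroblasts are the connective tissue cells that lay down and remodel the extracellular matrix of the dermis, and they are the usual adult cell set against pluripotent cells in such studies. ES cells are the self-renewing cells of the early embryo kept in culture, held undifferentiated by a small set of transcription factors, with tight epithelial contacts inside each colony and a short cell cycle. The series design uses the fibroblasts as a somatic control for the ES lines.

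Values are log2 expression per probe set, a group of short probes that together measure a transcript. Pearson r between pairs of fibroblast arrays was 0.9957 to 0.9968 over all probe sets, between arrays of different ES lines 0.9758 to 0.9896, and between fibroblast and ES arrays 0.8573 to 0.8812. Within ORMES-22 the agreement was lower (0.9844 to 0.9928) than within rPESC-2 (0.9937 to 0.9950) or ORMES-9 (0.9948 to 0.9956). ORMES-22 replicates B and C gave 0.9928, while replicate A gave 0.9855 with B and 0.9844 with C. Replicate A was closer to the rPESC-2 arrays, at 0.9882 to 0.9896. Of 11 fibroblast markers listed, 9 were measured, and their mean level per array was 10.42 to 10.51 in fibroblasts and 6.44 to 7.19 in ES cells. FAP, LUM and PRRX1 were under the background level in every ES line. ES markers, 8 of 10 measured, averaged 4.92 to 5.12 in fibroblasts and 9.99 to 10.30 in ES cells. Of the 9 fibroblast markers 7 separated higher, while THY1 (-0.31) and DCN (-0.43) were not called on their chosen probe sets. Of the 8 ES markers 6 separated lower, ZFP42 was not called (-0.10) and NANOG separated higher (9.53 against 8.205). Among markers of other cells of skin, keratinocyte markers (4 of 6 measured) averaged 5.62 to 5.69 in fibroblasts against 5.66 to 5.87, melanocyte markers (6 of 6) 4.91 to 4.98 against 5.12 to 5.26, and endothelial markers (6 of 6) 4.97 to 5.00 against 5.69 to 6.16. Of the endothelial markers, PECAM1 separated higher in fibroblasts (6.62 against 5.25) and TEK lower (5.10 against 9.35). Immune markers (3 of 3) averaged 5.05 to 5.07 against 4.56 to 4.89, and none of its genes separated. These means use 1 probe set per gene, and MITF, not called on its chosen one (-0.59), was called higher on its other (6.60 against 3.83 in ES cells). The background level was 4.26, a value under which 90% of the readings of 42 probe sets for bacterial genes lay. SRY, the only Y-linked gene measured, read 5.42, 5.45 and 5.41 in the male fibroblasts and 6.01 to 6.72 in the female lines, so it gave no check of sex.

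A probe set was called when its adjusted p was under 0.05 and its difference at least 2-fold, in limma's fit with the 3 ES lines weighted equally. Of 52766 probe sets, 5532 (10.5%) were called higher and 4637 (8.79%) lower in fibroblasts. Taking 1 probe set per gene, the one with the highest mean over the 12 arrays, gave 12993 named genes, of which 1719 (13.2%) were called higher and 1954 (15%) lower. A gene was then counted as separating when it was also called in the same direction against each ES line alone and its 3 fibroblast values lay outside the range of the 9 ES values. By that rule 1430 genes (11%) were higher and 1534 (11.8%) lower, and 709 called genes failed it. The 3 comparisons with 1 line share the fibroblast arrays, so being called against all 3 lines is not 3 independent results. The median difference was 2.06 among separating genes that were higher, -1.80 among those that were lower and -0.15 over all genes. With 8-fold in place of 2-fold, against the ES mean and each line, 286 genes (2.2%) separated higher and 228 (1.75%) lower. In RNA from whole cultures, fewer cells of a type and less RNA per cell cannot be told apart.

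**Figure D1:**
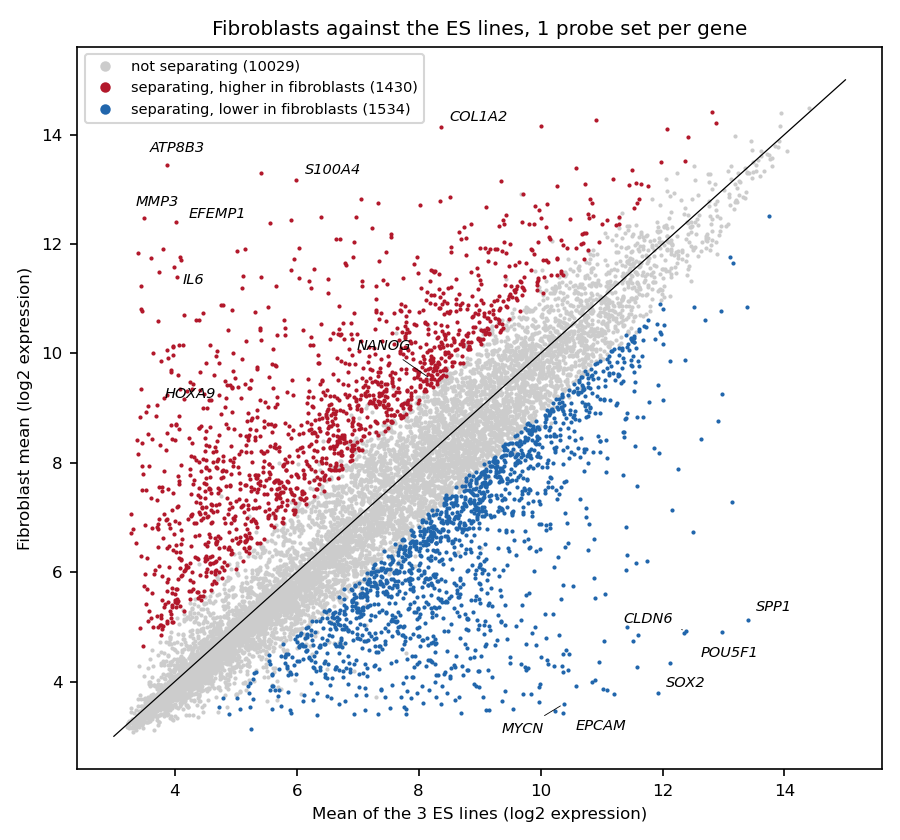
Mean log2 expression of each of 12993 genes in the 3 ES lines (horizontal axis, lines weighted equally) and in fibroblasts (vertical axis), 1 point per gene, with the line of equal expression. The 1430 separating genes higher in fibroblasts (red) reach far from the line at the left, where MMP3 and IL6 are near background in ES cells, and the 1534 lower ones (blue) include SOX2 and POU5F1 at the lower right.

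The largest increases included genes of proteolysis, matrix and signalling, and an enzyme of retinoic acid synthesis. MMP3, the stromelysin that degrades matrix proteins, read 12.40, 12.53 and 12.46 in fibroblasts and 3.39 to 3.60 over the 9 ES arrays (median 3.50), at least 296-fold higher (difference 8.97 ± 0.06 SE, adjusted p = 3.2e-16). Here and below, "at least" means that the fibroblast mean, or all 3 ES line means, lay at or under background on the dim side, so that arrays under that level were set to it for the fold. SERPINB2, an inhibitor of urokinase, read 11.69, 11.97 and 11.82 against 3.28 to 3.50 (median 3.40), at least 190-fold higher (8.43 ± 0.07, adjusted p = 8.1e-16). No fibroblast value came near an ES value for either gene. EFEMP1, the elastic fibre protein fibulin-3, read 12.37, 12.47 and 12.37 against 3.62 to 5.02 (median 3.89), 336-fold higher (8.39 ± 0.22, adjusted p = 8.7e-12). Its line mean was just above background in ORMES-22 (4.31) and under it in rPESC-2 (3.854) and ORMES-9 (3.875). No array was therefore set to background for this fold, and it cannot be ranked against the folds given as "at least". FGL2, a fibrinogen-like prothrombinase, was at least 180-fold higher (8.15 ± 0.07), and ALDH1A3, which makes retinoic acid, at least 201-fold higher (8.10 ± 0.07). The 9 ES arrays differed little for both, those of FGL2 spanning 3.43 to 3.70 and those of ALDH1A3 3.69 to 3.995.

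TGFBI, a matrix protein induced by TGF-beta, was 235-fold higher (7.87 ± 0.18) and was the 1 gene of the 15 whose ES arrays all lay above background (5.06 to 6.26). CTHRC1, a secreted protein of remodelling matrix, was at least 126-fold higher, and C1QTNF3, a secreted C1q-related protein, at least 175-fold, with 1 of 9 ES arrays above background. IL6, the inflammatory cytokine, read 11.62, 11.46 and 11.65 against 3.79 to 4.19 (median 4.00), at least 160-fold higher (7.59 ± 0.08, adjusted p = 2.9e-15). IFI16, a sensor of DNA in the nucleus, was at least 92.0-fold higher. ATP8B3, a phospholipid flippase, had the largest increase of any gene, at 13.45, 13.50 and 13.40 against 3.79 to 3.94 (median 3.83, at least 585-fold, 9.58 ± 0.06). Its other 2 probe sets differed by -1.12 and -0.67, so the increase rests on 1 probe set of 3. CHP2, a calcium-binding partner of sodium-proton exchangers, likewise differed by 7.35 on 1 probe set and by -0.09 on the other.

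**Figure D2:**
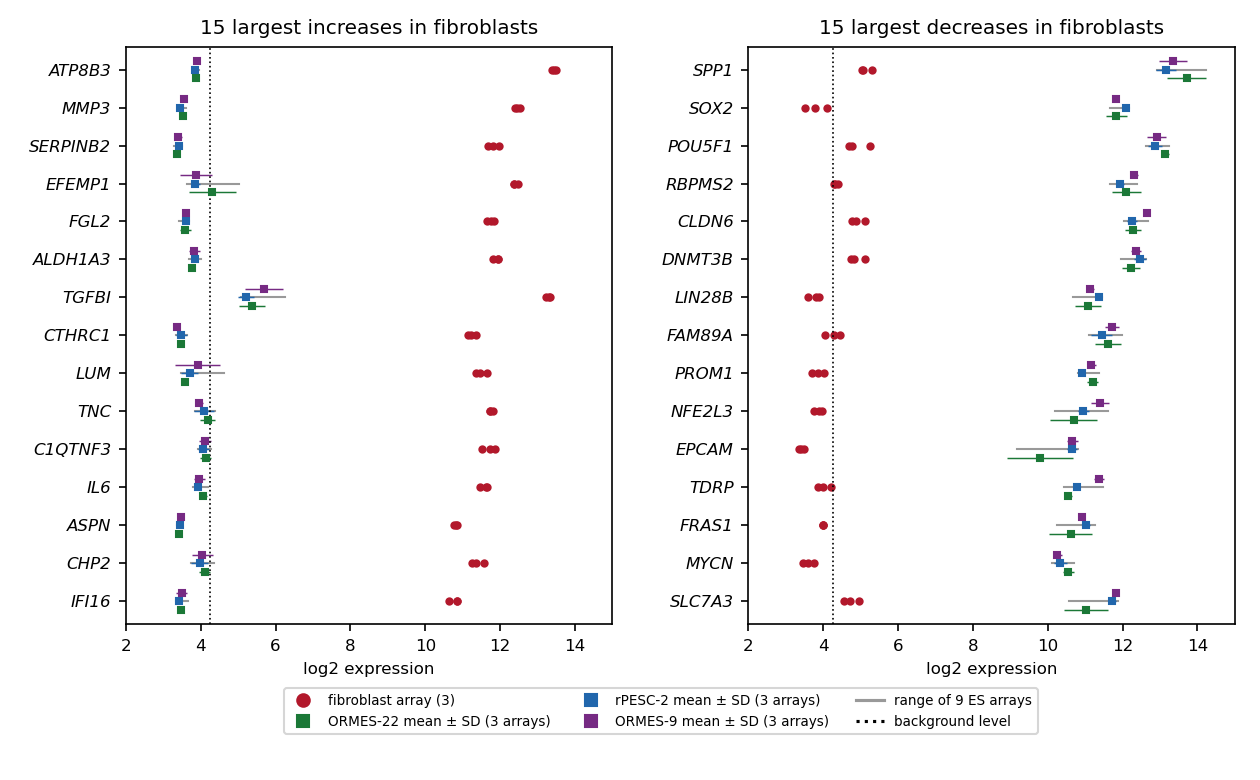
Log2 expression of the 15 separating genes with the largest increase (left) and the 15 with the largest decrease (right) in fibroblasts, with each fibroblast array as a red point, each ES line as a square at its mean with bars of 1 SD (3 arrays), the range of the 9 ES arrays as a grey line and the background level dotted. The fibroblast points and the ES range are apart in every gene because the separating rule asks for it.

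Among the 15 largest decreases were SOX2 and POU5F1, factors of the ES transcription network, beside genes of amino acid transport and RNA binding. SPP1, the secreted phosphoprotein osteopontin, read 5.32, 5.03 and 5.05 in fibroblasts and 12.91 to 14.24 in ES cells (median 13.46), 309-fold lower (-8.27 ± 0.20, adjusted p = 5.1e-12). SOX2, a core pluripotency factor, read 4.10, 3.52 and 3.77 against 11.66 to 12.17 (median 11.90), at least 203-fold lower (-8.13 ± 0.12, adjusted p = 7.6e-14). POU5F1, its partner OCT4, read 5.26, 4.68 and 4.76 against 12.62 to 13.24 (median 13.05), 269-fold lower (-8.07 ± 0.14, adjusted p = 1.7e-13). The fibroblast values of SOX2 lay under background, and those of POU5F1 and SPP1 slightly above it. RBPMS2, an RNA-binding protein, was 220-fold lower, PROM1, the surface protein CD133, at least 114-fold lower, and NFE2L3, a leucine zipper factor, at least 108-fold lower. SLC7A3, a transporter of cationic amino acids, was 110-fold lower (-6.78 ± 0.18), and TDRP at least 99.9-fold lower. For FAM89A and FRAS1, the latter a basement membrane protein, the decrease stood on 1 probe set (-7.33 and -6.86) and the others differed by 0.46 for FAM89A and by -0.69 and -0.33 for FRAS1. Of the 30 genes of both groups, 16 had other probe sets, and for 11 of these another one was called in the same direction.

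Collagens and the enzymes that process them were higher in fibroblasts, with 15 of 23 measured genes separating higher and none separating lower (median difference 2.04). Of all genes 11% separated higher. COL1A2, a chain of type I collagen, read 14.09, 14.15 and 14.15 in fibroblasts and 7.16 to 9.19 in ES cells (median 8.51), 54.0-fold higher (5.75 ± 0.34, adjusted p = 2.2e-08). LOX, which crosslinks collagen and elastin, was 47.6-fold higher (5.57 ± 0.37, adjusted p = 5.6e-08). COL12A1, a collagen on the surface of fibrils, was 20.2-fold higher and COL6A3, of the beaded microfibrils, 15.1-fold. The fibroblast values of these 4 genes agreed closely, while their ES values spread over more than 2 log2 units, and none was at background in ES cells. The other 2 chains of type VI collagen were higher by 3.57 (COL6A1) and 3.09 (COL6A2), and COL1A1 and COL3A1 by 2.36 and 2.52. COL5A2 was called lower (-1.13) on the chosen probe set, which reads 11.33 in fibroblasts and 12.46 in ES cells. Its other 3 probe sets differed by -0.80, 5.79 and 6.03, so the direction for COL5A2 depends on the probe set. PLOD1, a lysyl hydroxylase, was also called lower (-1.02), with 0.97 on another of its probe sets. Using the probe set with the largest interquartile range, 20 genes of the list were called higher and none lower, beside 18 and 2 in the main analysis.

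Matrix glycoproteins and proteoglycans separated higher in 13 of 24 measured genes and lower in 3, beside 11% and 11.8% of all genes. The 3 that were lower are near the share of all genes. EFEMP1 and TGFBI led, followed by LUM, the corneal and dermal proteoglycan lumican, at 11.64, 11.35 and 11.46 against 3.47 to 4.61 (median 3.58, 1 of 9 arrays above background), at least 146-fold higher (7.75 ± 0.19, adjusted p = 4.9e-12). TNC, the matrix protein tenascin-C of healing wounds, was at least 178-fold higher (7.68 ± 0.11, 2 of 9 ES arrays above background), and ASPN, a small leucine-rich proteoglycan, at least 94.3-fold. CCDC80 differed by 6.75, FBN1, the fibrillin of elastic microfibrils, by 5.76 and FBLN5 by 4.58. FN1, fibronectin, was higher by 2.00. The members that were lower were FBLN1 (-2.07), MFAP2 (-1.52) and the heparan sulfate proteoglycan SDC2 (-1.27). For FBLN1 the direction turned with the probe set, to 1.11 on the one with the largest interquartile range and 0.28 over the mean of its probe sets. DCN, the dermal proteoglycan decorin, was not called on its chosen probe set (-0.43). That probe set reads 6.75, 6.56 and 6.75 in fibroblasts, while the other 4 differed by 7.91 to 8.55. Whether DCN is called therefore depends on the probe set chosen. Among all 1596 separating genes with several probe sets, every other probe set was called the same way in 619, none was in 655, and at least 1 was called the opposite way in 51.

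Enzymes that cut matrix, and their inhibitors, were the list with the largest share of separating genes, 15 of 18 measured higher and none lower (median 2.67). MMP3 is described above, and the interstitial collagenase MMP1 was higher by 3.15, MMP19 by 3.04, MMP2 by 1.64 and MMP14 by 1.41. ADAM12, a metalloprotease of the cell surface, read 9.69, 9.69 and 9.71 against 3.73 to 4.15 (median 3.90), at least 43.4-fold higher (5.76 ± 0.09, adjusted p = 6.9e-14). ADAMTS1, which cleaves proteoglycans, was 33.5-fold higher (5.07 ± 0.25), and CTSK, a collagen-degrading cathepsin, 24.9-fold (4.64 ± 0.08). Inhibitors separated with the enzymes, TIMP1 by 2.69, TIMP2 by 1.98 and SERPINE2 by 3.35. PLAU (0.42) and TIMP3 (0.86) were not called, and SERPINF1 was called (1.06) but did not separate.

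In the list made for fibroblast surface markers 8 of 11 measured genes separated, all higher (median 2.97). FAP, a serine protease of activated fibroblasts, read 10.11, 9.82 and 9.95 against 3.85 to 4.15 (median 3.91), at least 52.1-fold higher (5.997 ± 0.081, adjusted p = 2.5e-14). TNFRSF11B, the decoy receptor osteoprotegerin, which is secreted though held in this list, was 30.3-fold higher (4.92 ± 0.44, adjusted p = 8.7e-07). Its ES values were uneven, 7.03 and 5.46 on ORMES-22 replicates C and B and between 3.69 and 4.20 on the other 7 arrays. DDR2, a collagen receptor, was higher by 3.33 and CD44, the hyaluronan receptor, by 3.17. THY1, a common fibroblast marker, was not called (-0.31, adjusted p = 0.051), and neither was its other probe set (-0.17). THY1 read 9.27, 9.48 and 9.52 in fibroblasts and 8.997 to 10.332 in ES cells, so the groups overlapped. NT5E (0.35) and MME (-0.66) were not called either.

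Transcription factors of mesenchyme separated higher in 18 of 36 measured genes and lower in none, with a median of 1.32. PRRX1, a homeobox factor of limb and skin mesenchyme, read 10.65, 10.59 and 10.87 against 4.05 to 4.29 (median 4.12, 2 of 9 arrays above background), at least 87.0-fold higher (6.56 ± 0.07, adjusted p = 4.6e-15). RUNX1 was 25.6-fold higher (4.68 ± 0.23) and EBF1 at least 15.4-fold (4.38 ± 0.17, 1 of 9 ES arrays above background), both better known for roles in blood cells. These sizes are those of the chosen probe sets. The other 6 of RUNX1 differed by 0.43 to 1.84, with 3 called higher, and the other of EBF1 by 1.92. ZEB2, a repressor of epithelial genes, was 18.3-fold higher (4.19 ± 0.49, adjusted p = 1.2e-05). Its ES values ran from 3.82 to 6.77, with the highest on ORMES-22 replicate C. The related ZEB1 was higher by 3.18, TWIST1 by 2.51, the forkhead factors FOXF1 and FOXF2 by 2.92 and 3.12, and MSX1 by 4.17. The T-box genes TBX3 (2.83) and TBX15 (1.84) separated, while TBX2 (-0.23), TBX5 (-0.07) and TBX18 (0.38) were not called. SNAI1 (0.84) and TWIST2 (0.73) were not called. All 18 genes of the list that were called also separated.

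The HOX genes, which record position along the body axis, separated in 11 of 26 measured genes, all higher (median 0.90). HOXA9 read 9.06 ± 0.06 (SD, n = 3) in fibroblasts against 3.50 to 3.94 in ES cells (median 3.69), at least 28.0-fold higher (5.36 ± 0.09, adjusted p = 1.4e-13). HOXB6 was 9.61-fold higher (3.26 ± 0.11) on 1 probe set and -0.04 apart on its other. HOXA7 was 7.22-fold higher (2.85 ± 0.10) and HOXA5 5.59-fold (2.48 ± 0.15). HOXD10 was higher by 2.21, HOXB7 by 2.19, HOXA10 by 1.53, HOXA11 by 1.36, HOXC6 by 1.32, HOXC10 by 1.25 and HOXB5 by 1.23. Grouped by paralogue number, a grouping made after the values were seen, groups 5 to 11 held 11 separating genes of 14 measured and the other groups none of 12. Of those 12, HOXD4 was called (1.31) but failed the separating rule, having ES values of 4.50 to 6.03. In groups 5 to 11, HOXD9 was called (1.08) without separating, and HOXA6 (0.71) and HOXB8 (-0.15) were not called. HOXA2 was under background in both cell types, at 3.72 to 3.82 in fibroblasts and 3.64 to 3.85 in ES cells. For 6 HOX genes the ES mean was under background.

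**Figure D3:**
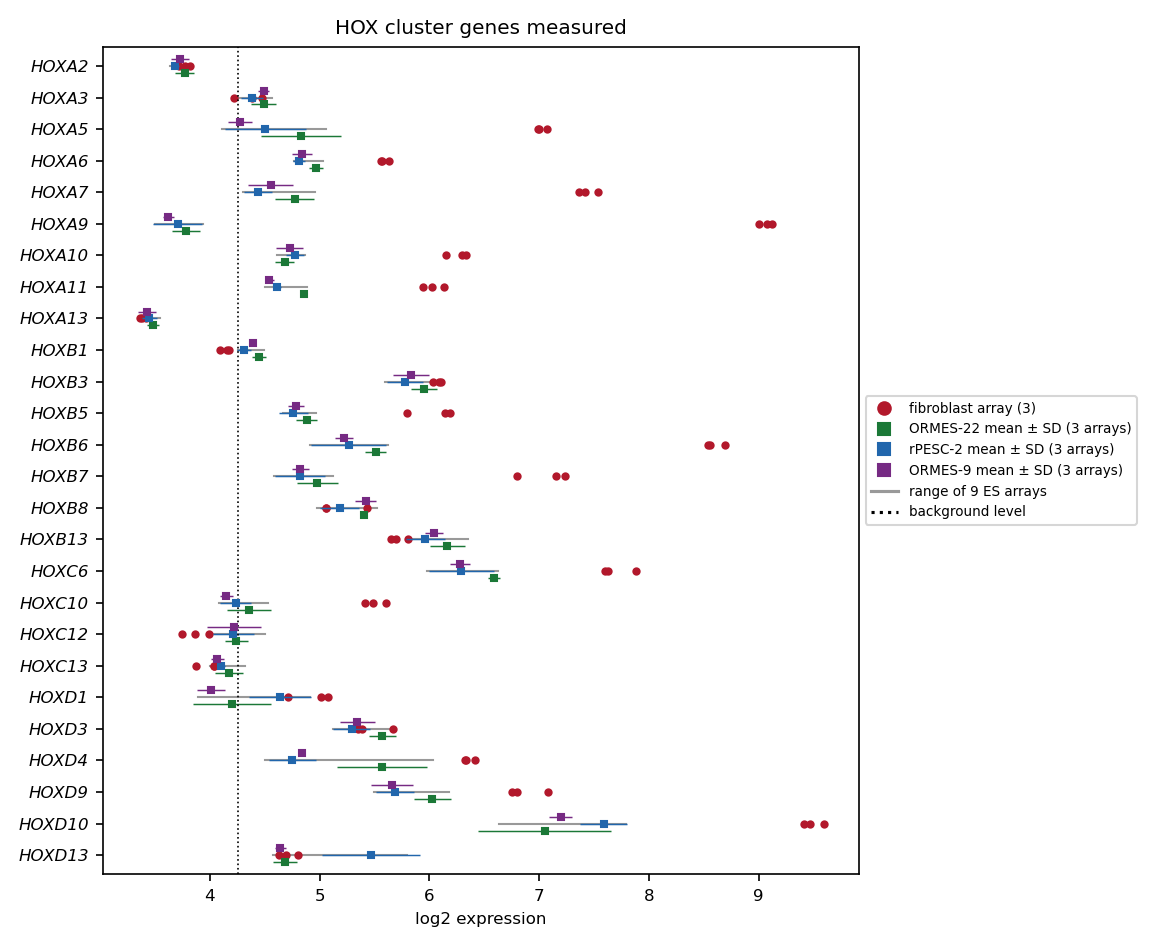
Log2 expression of the 26 HOX genes measured, ordered by cluster and paralogue number, with each fibroblast array as a red point, each ES line as a square at its mean with bars of 1 SD (3 arrays), the range of the 9 ES arrays as a grey line and the background level dotted. Red points lie to the right of the ES range mainly in groups 5 to 11, with HOXA9 farthest, and within or near it for HOXA2, HOXA13, HOXC13 and HOXD13.

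Calcium-binding S100 proteins, annexins and galectins separated higher in 9 of 13 measured genes and lower in none (median 2.34). S100A4, also called fibroblast-specific protein, read 13.24, 13.23 and 13.02 against 5.09 to 7.32 (median 5.80), 144-fold higher (7.17 ± 0.31, adjusted p = 9.4e-10). ANXA1, an annexin induced by glucocorticoids, was 20.4-fold higher (4.35 ± 0.66, adjusted p = 0.0001). Its ES values ran from 6.197 to 11.057, the widest spread of the genes of this list named here, and its fibroblast values of 12.69, 13.02 and 12.89 lay above all of them. LGALS1, galectin-1, was 17.7-fold higher (4.15 ± 0.29) and LGALS3 13.8-fold (3.79 ± 0.13). ANXA5 (-0.21) and S100A10 (-0.03) were not called, while ANXA2 was higher by 1.32.

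Contractile and filament proteins were less uniform, 5 of 18 measured separating higher and 1 lower (median 0.45). LMNA, the lamin of differentiated cell nuclei, read 12.46, 12.34 and 12.31 against 8.45 to 9.74 (median 8.70), 11.4-fold higher (3.51 ± 0.18, adjusted p = 3.7e-09). VIM, the mesenchymal intermediate filament vimentin, was higher by 1.60, the nonmuscle myosins MYH9 and MYH10 by 1.26 and 1.63, and the focal adhesion protein TES by 1.65. TES differed by 0.34 and was not called when its 4 probe sets were averaged. PDLIM7, an actin-binding adaptor, was 5.46-fold lower (-2.45 ± 0.06), and the smooth muscle calponin CNN1 was called lower (-1.45) without separating. TAGLN (-0.21), FLNA (-0.39) and MYL9 (-0.61) were not called. In the caveolar coat, CAV1 was 3.62-fold higher (1.85 ± 0.23, adjusted p = 2.1e-05) and EHD2 2.46-fold, among 5 genes measured.

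Secreted growth regulators separated higher in 14 of 26 measured genes and lower in 1 (median 1.25). IGFBP5, a carrier of insulin-like growth factors, read 11.20, 11.39 and 11.60 against 5.07 to 5.98 (median 5.39), 62.9-fold higher (5.98 ± 0.13, adjusted p = 1.6e-12). Its relatives IGFBP3 (4.69), IGFBP6 (3.71) and IGFBP4 (3.09) separated as well, IGFBP2 (1.12) was called without separating, and the growth factors IGF1 (-0.20) and IGF2 (-0.21) were not called. DKK3 was 33.3-fold higher (5.06 ± 0.29), the BMP antagonist GREM1 31.2-fold (4.96 ± 0.19) and the WNT antagonist DKK1 28.3-fold (4.83 ± 0.15). For GREM1 the other probe set differed by 0.71 and was not called. WNT5A was higher by 3.25, PDGFC by 3.73, INHBA by 2.32, TGFB1 by 2.13 and FGF2 by 2.10. BMP4 was the single member that separated lower, by -4.09.

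Cytokines, chemokines and their receptors separated higher in 8 of 13 measured genes (median 2.08). Beside IL6, CXCL8, which attracts neutrophils, read 10.91, 10.65 and 11.08 against 4.55 to 5.03 (median 4.73), 69.8-fold higher (6.12 ± 0.10, adjusted p = 1.1e-13). IL6ST, the receptor subunit gp130 that carries the IL6 signal, was at least 48.4-fold higher (6.08 ± 0.14), and CCL2, which attracts monocytes, at least 19.4-fold (4.66 ± 0.08). LIF and OSMR, a ligand and a receptor of the same family, were higher by 2.43 and 2.52. CXCL12 was called lower (-2.10) without separating, on 1 of 3 probe sets, with 0.16 and -0.07 on the others, which were not called. IL1B (0.11) and IL33 (-0.04) were not called.

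Interferon response genes split, 3 of 14 measured separating higher and 4 lower (median -0.09). IFI16 (7.32) and IFIT3 were higher, the latter 8.84-fold (3.14 ± 0.14) on 1 of 3 probe sets, with 0.57 and 0.99 on the others, and IRF1 was higher by 1.497. IFITM1, a membrane protein that blocks virus entry, read 7.36, 7.12 and 7.39 in fibroblasts against 12.51 to 13.60 (median 13.23), 57.9-fold lower (-5.86 ± 0.10, adjusted p = 3e-13). MX1, an antiviral GTPase, was 7.88-fold lower (-2.98 ± 0.20), BST2 lower by -2.85 and GBP2 by -2.27. IFIT1 (0.03), MX2 (0.02) and OAS1 (-0.21) were not called. Antigen presentation genes separated higher in 5 of 14 measured cases and lower in none (median 1.13). TAPBP, which loads peptides onto class I molecules, was 10.2-fold higher on the chosen probe set (3.34 ± 0.14) and 0.14 and 0.54 apart on the others. PSMB8, a subunit of the immunoproteasome, was 8.58-fold higher (3.10 ± 0.07), TAP2 2.47-fold and MAMU-F 2.39-fold. For TAP2 and MAMU-F the mean of all probe sets differed by 0.39 and 0.35 and was not called. Class I genes of the macaque are near copies of each other, so values of single MAMU genes are uncertain.

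In the list of DNA replication and nucleotide synthesis 13 of 21 measured genes separated lower and none higher (median -1.28), beside 11.8% lower over all genes. MCM3, a subunit of the replicative helicase, read 8.97, 8.87 and 8.68 against 11.57 to 11.98 (median 11.64), 7.14-fold lower (-2.84 ± 0.08, adjusted p = 2e-11). MCM2 was 6.36-fold lower (-2.67 ± 0.08), GINS2 3.52-fold, and DUT, which clears dUTP, at least 3.31-fold. MCM4 (-1.74), MCM10 (-1.63), MCM5 (-1.28), POLD1 (-1.75) and CDT1 (-1.58) also separated. PCNA (-0.46), TYMS (0.23) and RRM1 (0.26) were not called. No gene of this list separated by 8-fold, and of all genes 1.75% separated lower by that much. With 21 genes measured, this is near the share of all genes.

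Mitotic genes separated lower in 4 of 11 measured cases, with 7 called lower (median -1.09). AURKB, a kinase of chromosome segregation, was 4.48-fold lower (-2.16 ± 0.13, and -0.41 on its other probe set), CENPF 3.28-fold (-1.71 ± 0.07), CDK1 2.18-fold and AURKA 2.16-fold. TOP2A (-1.18), MKI67 (-1.09) and CCNB1 (-1.02) were called without separating, and TPX2 (0.03) was not called. AURKA was not called when its probe sets were averaged (-0.68). DNA repair genes separated lower in 7 of 15 measured cases and higher in none (median -0.65). UNG, which removes uracil from DNA, was lower by -3.00 ± 0.10, RAD54B 5.81-fold, the mismatch repair gene MSH6 4.46-fold and the checkpoint kinase gene CHEK1 3.89-fold. BRCA1 (-0.60), BRCA2 (-0.65) and FANCD2 (-0.57) were not called.

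Regulators of entry into the cycle differed in both directions. In the cyclin and G1 list 4 of 17 measured genes separated higher and 5 lower. The D cyclin CCND1 read 11.56, 11.41 and 11.01 against 7.680 to 8.998 (median 8.093), 8.82-fold higher (3.14 ± 0.20, adjusted p = 3.1e-08), and CCND3 and the D cyclin partner CDK6 were higher by 3.06 and 2.18. The E cyclins moved apart, as CCNE1 was 8.48-fold lower (-3.08 ± 0.08, adjusted p = 7.8e-12) and CCNE2 higher by 2.97. MYCN, a MYC-family oncogene of embryonic cells, read 3.45, 3.58 and 3.75 against 10.12 to 10.70 (median 10.34), at least 69.8-fold lower (-6.79 ± 0.09) on the chosen probe set, with -0.61 and -0.82 on the others. MYCL was at least 23.1-fold lower (-4.57 ± 0.15, 1 of 3 fibroblast arrays above background) on 1 of its 2 probe sets, with -0.62 on the other, and MYC itself was not called (-0.04). Inhibitors of the cycle separated higher in 4 of 13 measured cases and lower in none (median 0.90). CDKN1A, the inhibitor p21, read 11.30, 11.11 and 11.28 against 6.28 to 7.88 (median 7.02), 17.8-fold higher (4.16 ± 0.18), and CDKN2C was 17.5-fold higher (4.13 ± 0.09). CDKN2A, the locus of p16, was 4.39-fold higher (2.13 ± 0.31, adjusted p = 7.7e-05), but differed by 0.87 and was not called over the mean of its 3 probe sets. CDKN1B (0.64) and RB1 (0.17) were not called.

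The lists of ribosome assembly and metabolism had median differences from -0.83 to 0.71, though single genes differed by much more. Of 20 ribosome biogenesis genes 6 separated lower and none higher (median -0.83), among them NOP56 by -1.68, BOP1 by -1.59, NOP2 by -1.34 and RRP9 by -1.27. Averaging the probe sets left 3 genes of this list called in place of 6, and NOP2 then differed by -0.48. Glucose transporters were lower, SLC2A1 13.3-fold (-3.73 ± 0.12, adjusted p = 7e-11) and SLC2A3 4.51-fold (-2.17 ± 0.07). SLC2A1 read 7.09, 6.93 and 7.02 in fibroblasts and 10.21 to 11.05 in ES cells (median 10.84), and differed by -0.07 on its other probe set. The isoenzymes of glycolysis went in opposite directions, ALDOC 6.02-fold lower and ENO2 6.24-fold higher, while GAPDH (-0.41), ENO1 (-0.08), GPI (0.05) and LDHA (0.23) were not called. Of 27 subunits of oxidative phosphorylation, 2 separated, SDHA 2.67-fold and COX7A1 2.47-fold higher, and 25 were not called (median 0.20). Of all genes 11% separated higher and 11.8% lower, so the 2 of 27 do not exceed the share of all genes. Lysosomal genes separated higher in 6 of 16 measured cases and lower in 1 (median 0.71). CTSZ was 4.68-fold higher, LAMP2 4.65-fold, ASAH1 3.97-fold and NPC1 3.49-fold, and CTSD was lower by -1.26. In the redox list ALDH1A3 stood out, with SOD2, the mitochondrial superoxide dismutase, 6.62-fold and the metallothionein MT2A 4.10-fold higher among 13 genes measured. On its other probe set SOD2 differed by 0.98 and was not called.

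Pluripotency genes separated lower in 12 of 20 measured cases, with a median of -2.75, and 3 separated higher. After SOX2 and POU5F1 came LIN28B, which blocks maturation of let-7 microRNAs, at 3.81, 3.89 and 3.60 against 10.69 to 11.44 (median 11.26), at least 123-fold lower (-7.43 ± 0.12). DPPA4, a chromatin-associated factor of pluripotent cells, was 97.1-fold lower (-6.60 ± 0.11, adjusted p = 2.1e-13). SALL4 was lower by -5.45, FOXD3 by -4.94, ZIC2 by -4.37, PRDM14 by -4.26, GDF3 by -3.42 and NODAL by -3.02. The 3 members that were higher in fibroblasts were KLF4 (2.45), KLF5 (2.43) and NANOG (1.32). NANOG, a core factor of ES cells, read 9.54, 9.55 and 9.50 in fibroblasts and 7.71 to 8.79 in ES cells (median 8.24), 1.32 higher (adjusted p = 1.3e-05). NANOG had 1 probe set and has pseudogenes of near-identical sequence in primates, so which transcript this probe set reads was not tested. KLF4 read 9.201, 9.248 and 8.999 against 5.99 to 7.96, and KLF5 8.72, 8.33 and 8.56 against 4.61 to 7.60, so neither overlapped. ZFP42 (-0.10), DPPA5 (-0.22), FGF4 (-0.67) and TERT (-0.79) were not called. ZFP42 (4.38 in fibroblasts against 4.485) and DPPA5 (4.17 against 4.38) read near background in both cell types, so their probe sets tell little.

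Epithelial genes were lower in fibroblasts, with 13 of 24 measured separating lower and none higher (median -1.95). CLDN6, a tight junction claudin of early embryonic epithelia, read 5.13, 4.76 and 4.88 against 12.04 to 12.68 (median 12.41), 177-fold lower (-7.47 ± 0.10, adjusted p = 2.4e-14). EPCAM, an epithelial adhesion molecule, was at least 69.0-fold lower (-6.95 ± 0.25). Its ES values were 9.18 and 9.37 on ORMES-22 replicates B and C and 10.52 to 10.82 on the others. DSP, the desmosomal plaque protein, was at least 63.0-fold lower (-6.77 ± 0.08), and the keratins KRT19 and KRT8 were lower by -6.20 and -5.07. CD24 (-5.77), the splicing factor ESRP2 (-3.86), RAB25 (-2.96) and OCLN (-2.41) separated too. KRT18, the usual partner of KRT8, was not called (0.60). The adhesion gene CDH1 was not called (-0.48), and neither were CLDN4 (-0.67) and SPINT2 (-0.08). CDH1 read 4.25 in fibroblasts and 4.73 in ES cells on its only probe set. Both lie near background, so this probe set tells little about CDH1.

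Enzymes of DNA methylation and other chromatin proteins separated lower in 12 of 21 measured cases and higher in none (median -1.86). DNMT3B, which places new methyl groups on DNA, read 5.11, 4.83 and 4.75 against 11.96 to 12.62 (median 12.40), 176-fold lower (-7.46 ± 0.11, adjusted p = 5.6e-14). TET1, which oxidises methylcytosine, was 55.7-fold lower (-5.80 ± 0.28), the second new-methylation enzyme DNMT3A 41.3-fold (-5.37 ± 0.14) and the Polycomb cofactor JARID2 16.1-fold (-4.01 ± 0.07). TET3 was lower by -1.99, while TET2 (0.45) was not called. DNMT1, which copies methylation at replication, was not called (-0.72), nor were UHRF1 (0.49), SUZ12 (-0.49) and EED (-0.34). HELLS, HMGA1, TRIM28 and KDM1A were lower by -2.87, -2.55, -2.49 and -1.98.

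Over 5 lists of other lineages and cell types, 4 of 65 measured genes separated higher and 8 lower, beside 11% and 11.8% of all genes. In the neural list SOX3 was 67.4-fold lower in fibroblasts (-6.07 ± 0.13) on 1 probe set, with -0.92 on the other, and SOX11 at least 27.9-fold lower. STMN2, a neuronal microtubule regulator, was 6.33-fold higher in fibroblasts (2.66 ± 0.23). The endoderm list had 3 of 10 measured genes separating lower, APOA1 (11.8-fold), CER1 (6.39-fold) and CXCR4 (5.69-fold), and SOX17 (-2.75) and FOXA2 (-2.07) were called lower and GATA6 (1.80) higher without separating. EOMES was 11.2-fold lower (-0.89 and not called on its other probe set) and TFAP2A 4.89-fold higher among 12 trophoblast genes. KIT, a receptor of germ and pigment cells, was at least 10.9-fold lower, and MAEL, with every ES array at background, at least 1.70-fold higher, among 10 germ cell genes. Of 22 markers of other skin cell types, 1 separated higher, PECAM1 (2.59-fold), and 1 lower, the angiopoietin receptor TEK (19.1-fold, and -0.39 and not called on its other probe set). These last 3 lists had medians of -0.13, -0.20 and -0.16, beside the -0.15 of all genes.

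**Figure D4:**
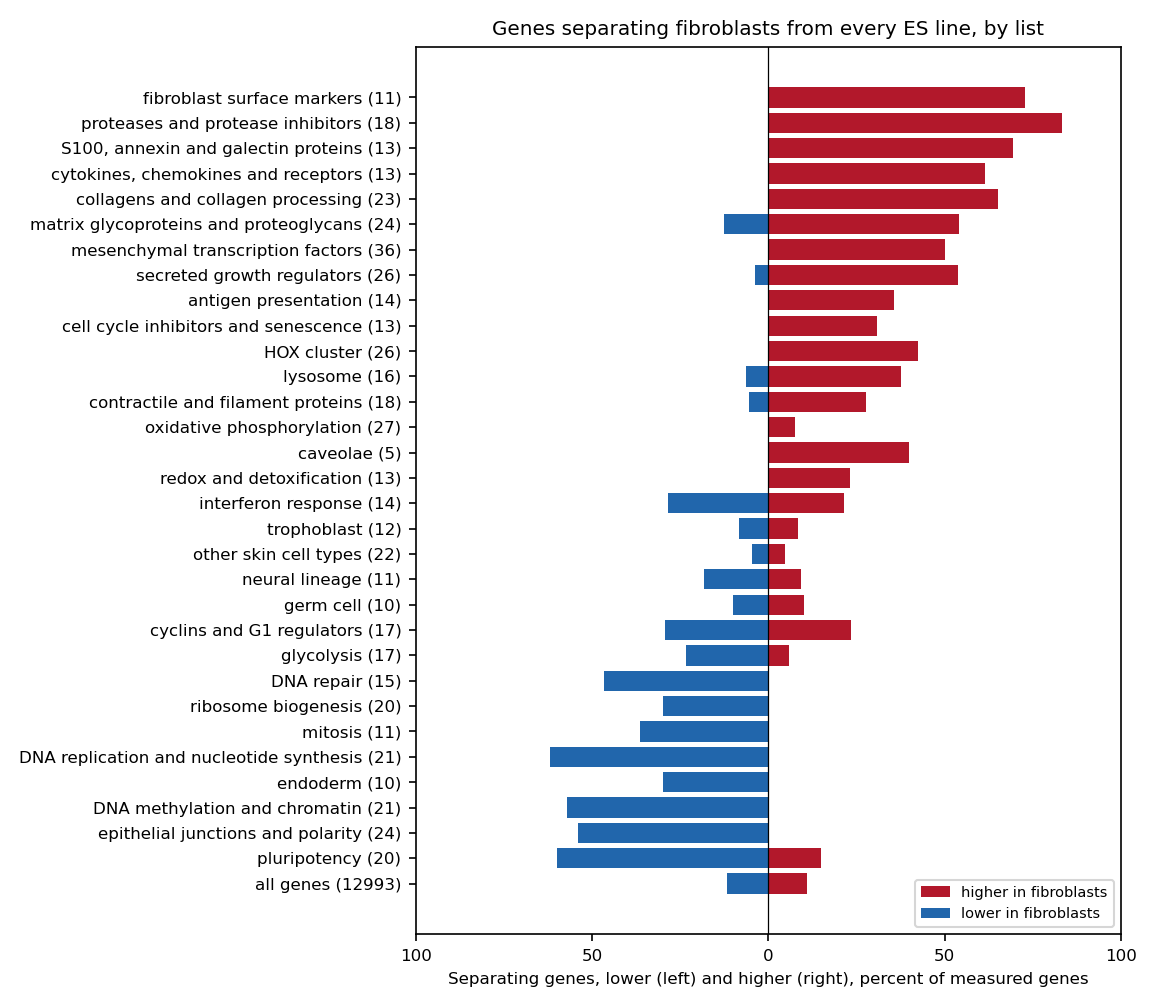
Percent of the measured genes of each list that separated fibroblasts from every ES line, higher (red, to the right) or lower (blue, to the left), with the number measured in parentheses and lists ordered by median difference. All 12993 genes, at the bottom, give 11% and 11.8%, proteases reach 15 of 18 to the right, and DNA replication 13 of 21 to the left.

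How alike the 3 ES lines were was tested in the same fit, by an F test over their means at an adjusted p under 0.05 with a largest difference of at least 2-fold. The lines differed for 469 of 12993 genes (3.61%), for 71 of the 1430 separating genes that were higher (4.97%) and for 105 of the 1534 that were lower (6.84%). Among the genes named here or in the lists 42 met this rule, of which 25 separated. THBS1, a matrix glycoprotein of platelets and wounds, had the widest difference among these 25, as fibroblasts exceeded ORMES-22 by 1.71, rPESC-2 by 6.81 and ORMES-9 by 2.20 (F test, adjusted p = 2.5e-05). DKK1 had line means of 5.16 in ORMES-22, 8.35 in rPESC-2 and 7.28 in ORMES-9, so fibroblasts exceeded the lines by 6.60, 3.40 and 4.48 (F test, adjusted p = 1.7e-06). LOX was nearest to the fibroblast level in ORMES-22, which it exceeded by 4.25 beside 6.57 for rPESC-2 and 5.90 for ORMES-9. TWIST1 exceeded ORMES-22 by 1.02, rPESC-2 by 2.81 and ORMES-9 by 3.69. ORMES-22 was the nearest line for 20 of the 25, PRDM14 being at the same distance from rPESC-2, ORMES-9 for 4 and rPESC-2 for 1. TEK was among the 4 nearest in ORMES-9, where its line mean was 7.85 against 10.15 in ORMES-22 and 10.06 in rPESC-2. Over all separating genes ORMES-22 was the line nearest to fibroblasts for 601 of the 1430 higher (42%) and 796 of the 1534 lower (51.9%). Of those whose ES lines differed, ORMES-22 was nearest for 32 of the 71 higher (45.1%) and 44 of the 105 lower (41.9%). These shares are smaller than the 20 of 25 among the named or listed genes. The 3 ORMES-22 arrays were uneven in this. Replicate A held the single ES value nearest to fibroblasts for 149 of the higher genes (10.4%) and 156 of the lower (10.2%). Replicate B held it for 199 (13.9%) and 267 (17.4%), and replicate C for 350 (24.5%) and 599 (39%). With replicate C left out of the line means, ORMES-22 was nearest for 527 (36.9%) and 625 (40.7%) of the same genes. ORMES-9 was then nearest for 510 (35.7%) and 492 (32.1%). Refitted without that array, 1440 genes separated higher and 1578 lower. Mean fibroblast marker levels of the 3 ORMES-22 arrays were 7.10, 7.19 and 7.09, above the 6.44 to 6.86 of the other 6 ES arrays, and their part in the nearness of ORMES-22 was not tested.

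**Figure D5:**
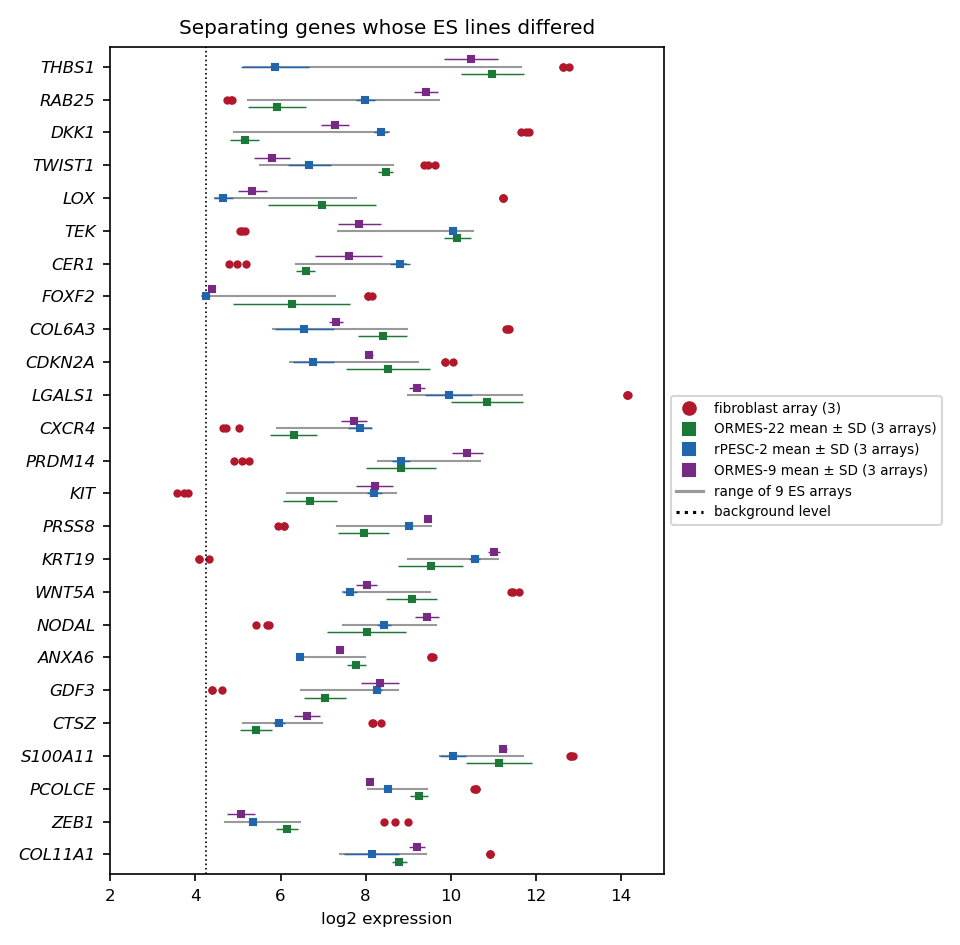
Log2 expression of the 25 separating genes, named or in a list, whose ES line means differed, with each fibroblast array as a red point, each ES line as a square at its mean with bars of 1 SD (3 arrays), the range of the 9 ES arrays as a grey line and the background level dotted. Fibroblast points lie outside the ES range in all 25, as the separating rule asks. THBS1 and DKK1 show wide gaps between lines, and TEK is lowest in ORMES-9.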

How the data were processed

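Total RNA was amplified with an oligo-dT primer by Affymetrix's one-cycle protocol and hybridised to 12 arrays, per the labels' protocols. The authors deposited log2 expression values from RMA, as named in the submitters' processing notes. The version is not given in the sources used here, and the log2 scale was read from the values (array medians 5.01 to 5.10). RMA brings arrays to one distribution, which reduces differences shared by most genes and understates those near background. Of 52865 features, 99 controls were left out. The number of arrays limits the precision.

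Symbols came from GEO's platform annotation: 24956 probe sets had 1, 361 several and 27449 none. Of those with 1, 24616 matched a RefSeq gene table (T2T-MMU8v2.0, used for names and for which genes are X-linked), and 1691 provisional ones were left out. Tests used R 4.3.3 and its package limma 3.58.1 (lmFit with 4 group means, then eBayes, 8 residual and 3.69 prior degrees of freedom, two-sided p, Benjamini-Hochberg over all probe sets). Genes named are the 15 largest increases and decreases among separating genes and up to 4 separating genes per list with the largest difference; other list members, and NANOG, DCN, COL5A2 and THY1, were named after their values were seen. The comparison and the 33 lists were chosen with earlier results of these data known. In simulated data 49.3% of 67 probe sets changed by 1 on the log2 scale were called, and 100% of those changed by 2 or 3. A change of 1 equals the 2-fold minimum, so noise puts such probe sets on either side of it. That share therefore follows from the cutoff and is no measure of sensitivity. The simulated ES lines did not differ from each other. Alternatives covered the samples fitted, ES line weights, normalisation, dim probe sets, moderation, array weights, minimum fold, the probe set of a gene and left-out arrays. The count of nearest lines without ORMES-22 replicate C was chosen after seeing the data. A planned count of promoter motifs was not run.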

Additional observations from a re-analysis of the deposited data

Results flagged for a closer look

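Of the genes named in the report or held in its lists, 42 were picked out because the difference from fibroblasts was not of like size for each ES line, by limma's F test over the 3 line means (adjusted p under 0.05 and at least 2-fold between 2 lines). Each value is the largest difference between 2 line means on the log2 scale, with the F test's adjusted p in parentheses. Separating genes that were higher in fibroblasts were THBS1 5.11 (2.5e-05), DKK1 3.19 (1.7e-06), TWIST1 2.67 (7.8e-05), LOX 2.32 (0.016), FOXF2 2.01 (0.027), COL6A3 1.84 (0.0082), CDKN2A 1.75 (0.027), LGALS1 1.63 (0.031), WNT5A 1.45 (0.005), ANXA6 1.33 (1.1e-05), CTSZ 1.21 (0.0044), S100A11 1.19 (0.033), PCOLCE 1.15 (4.1e-05), ZEB1 1.09 (0.0056) and COL11A1 1.07 (0.037). Separating genes that were lower were RAB25 3.51 (2.2e-05), TEK 2.29 (4.2e-05), CER1 2.21 (0.0019), CXCR4 1.57 (0.0031), PRDM14 1.56 (0.011), KIT 1.51 (0.0052), PRSS8 1.5 (0.0022), KRT19 1.48 (0.012), NODAL 1.42 (0.046) and GDF3 1.29 (0.0061). That the direction was the same against each line in all 25 of these follows from the separating rule. Genes called against the ES mean that did not separate were LIPA 3.20 (0.0003), SOX17 2.92 (0.00045), GATA6 2.78 (0.00035), FOXA2 2.33 (1.6e-05), CXCL12 2.23 (1.8e-06), P4HA1 1.74 (0.0053), SLC16A3 1.71 (0.012), CLDN7 1.67 (2.4e-05), CNN1 1.5 (0.0015), MAMU-B 1.42 (4.2e-05), CRB3 1.23 (0.00013), IGFBP2 1.16 (0.048) and MAMU-E 1.00 (0.0014). The genes not called against the ES mean were CAVIN2 5.14 (4.5e-08), TYMS 1.41 (1e-06), PLAU 1.20 (0.022) and GAP43 1.09 (0.001). CAVIN2, a protein of caveolae, was lower in fibroblasts than in ORMES-22 by -2.21 and rPESC-2 by -1.73, and 2.93 higher than in ORMES-9. CTSZ was 2.81, 2.27 and 1.60 higher in fibroblasts than in ORMES-22, rPESC-2 and ORMES-9. Groups of 3 arrays are too small for a check of single outlying arrays.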

How the results depend on the processing

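With no minimum fold 11762 probe sets were higher and 20067 lower and 2684 and 4139 genes separated, and with a 4-fold minimum 2427 and 1475 probe sets and 630 and 498 genes. Other settings kept these 4 counts within 1.5 times: leaving out 1 array gave 5344 to 5629 probe sets higher, 4558 to 4713 lower, and 1385 to 1462 and 1422 to 1578 separating genes, the ends of the last range being without ORMES-22 replicates A and C. Choosing the probe set by interquartile range gave 1853 and 1623 separating genes, and averaging probe sets 1410 and 1219. None of the genes named by the rule reversed under these alternatives. Among other list members called, COL5A2 turned from -1.13 to 6.03 with the probe set of largest interquartile range and 2.47 with the mean of probe sets, FBLN1 from -2.07 to 1.11 and 0.28, and PLOD1 from -1.02 to 0.97 with the former. With the mean of probe sets TES (0.34), TAP2 (0.39), MAMU-F (0.35), CDKN2A (0.87), AURKA (-0.68) and NOP2 (-0.48) were no longer called, and NOP56 (-0.83) was not with the probe set of largest interquartile range. Of the named genes 23 fell under the 4-fold minimum. Fitting 2 groups with line differences in the residual gave 5492 and 4597 probe sets, and the line as a random block 5474 and 4565. With the replicate letter as a block (replicate block) the counts were 5531 and 4638 probe sets and 1428 and 1534 genes. Same-letter deviations of fibroblast and ES arrays correlated at -0.095 to 0.155, with 3 of 9 pairs above 0.1, and those of different letters at -0.22 to 0.239. With 3 arrays per group this cannot settle whether the letters pair the samples. Median subtraction and quantile normalisation moved the median of all genes from -0.15 to -0.12 and -0.14. Near background RMA values carry little information on fold size.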

Other observations

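By the chromosome of the reference gene table, 482 of the genes measured were X-linked, and 48 of them (9.96%) separated higher and 81 (16.8%) lower in the male fibroblasts, beside 11% and 11.8% of all genes, with a median difference of -0.19 beside -0.15 for the other genes. XIST and the other listed genes of X inactivation were not analysed here.

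Probe sets without a usable symbol, 29501 in all, held 2003 called higher (6.79%) and 1777 called lower (6.02%) in fibroblasts, beside 10.5% and 8.79% of all probe sets. Among separating genes, 157 of those higher (10.98%) had all 3 ES line means under background. Of those lower, 140 (9.13%) had the fibroblast mean under it. For the rest, at least 1 ES line mean, or the fibroblast mean, was not under that level. A reading above background does not by itself show expression, as SRY read above it in the female lines.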
